A study of Mus musculus with 2 samples.

Results

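Macrophages that transcribed the C1q genes but in which no Mrc1 transcript was counted were examined among leukocytes of mouse liver tumours. A cell belonged to them if its barcode had at least 200 genes and under 15% of its unique molecular identifiers (UMIs) from mitochondrial genes, at least 5 UMIs of C1qa, C1qb and C1qc together, none of Mrc1 and none of Cd3e, Cd79a, Krt18 or Flt3. Each UMI stands for 1 captured transcript. Of 11698 barcodes 151 met the rule, 84 of 6610 in the library of mice fed Akkermansia muciniphila (AKK) and 67 of 5088 in the library of mice given phosphate-buffered saline (PBS). The rule used the UMIs of those 8 genes, so their levels in the members are given as a description.

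Both groups were C57BL/6 mice on a methionine- and choline-deficient (MCD) diet that carried an orthotopic tumour of luciferase-labelled RIL-175, a mouse liver cancer cell line. AKK mice received 5e9 colony-forming units of the bacterium, a mucin-degrading gut commensal, and PBS mice the buffer. Feeding began 2 weeks before the diet, the diet 2 weeks before implantation, and feeding was paused for 6 days after surgery. CD45-positive cells were sorted and profiled with 10x 3′ v3 chemistry in 1 library per group, so there was no replicate and no test between groups. Every interval below covers counting error only, and "higher" and "lower" describe these libraries.

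C1q is the recognition molecule of the classical complement pathway. Its 3 chains are made in the periphery mainly by macrophages, and C1q-rich macrophages are common in liver tumours. Mrc1 encodes the mannose receptor CD206, an endocytic lectin of many tissue macrophages and of those activated by interleukin-4. Monocytes that enter a tumour and mature there gain C1q, Apoe and engulfment receptors while they lose Ly6c2, Ccr2 and Plac8.

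The members carried macrophage transcripts. At least 3 of 10 fixed macrophage markers had a UMI in 94.05% of AKK and 98.5% of PBS members, with a median of 6 detected in both. Csf1r, the receptor for colony-stimulating factor 1, stood at 374 UMIs out of 1e6 (CPM) in AKK and 333 in PBS members. Arg1 had a UMI in 66.7% of AKK and 71.6% of PBS members, against 5.99% of AKK and 12.6% of PBS T cells, which should lack it. Mmp12 had one in 72.6% of AKK and 74.6% of PBS members, against 16.4% of AKK and 20.8% of PBS T cells. Median depths were 11109 and 15874 UMIs in AKK and PBS members, and 10142 and 10812 in AKK and PBS T cells. T cells were barcodes with at least 2 Cd3e UMIs and none of Csf1r.

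Markers that define the Kupffer cell, the resident liver macrophage, were at or near 0. Clec4f and Vsig4 had no UMI in either library's members, which allows up to 3 counts, and the 6 Kupffer markers summed to 8.74 CPM in AKK and 5.08 CPM in PBS members. The 6 monocyte markers, all detected, summed to 1347 CPM in AKK and 2226 CPM in PBS members, against 6808 CPM in AKK and 7673 CPM in PBS monocytes chosen by Ly6c2. The 8 neutrophil markers, also all detected, summed to 2608 CPM in AKK and 1406 CPM in PBS members. S100a8, an abundant neutrophil transcript, was at 989 CPM in AKK and 581 CPM in PBS members, below the 1299 CPM of AKK and 1414 CPM of PBS T cells. Cells differed, and S100a8 and S100a9 together took up to 4.93% of the UMIs of an AKK member and up to 0.643% of a PBS member. The 5 plasma cell markers, Tnfrsf17 at 0 in both, summed to 566 CPM in AKK and 331 CPM in PBS members. Jchain made 151 CPM of this in AKK and 16.9 CPM in PBS, against 626 CPM in AKK and 36.2 CPM in PBS T cells. The 7 markers of type 2 conventional dendritic cells (cDC2) summed to 562 CPM in AKK members, 6 of them detected, and 329 CPM in PBS members, 5 detected. Flt3, at 0 by the rule, and in PBS also Cd7 were the genes at 0. Mgl2, which macrophages also transcribe, made 342 CPM of the sum in AKK and 149 CPM in PBS. Most of its UMIs came from the few members with the surface protein gene Plet1, described below. The 6 markers of type 1 conventional dendritic cells (cDC1), Snx22 at 0 in both, summed to 281 CPM in AKK and 273 CPM in PBS members. Xcr1 made 1.75 CPM of this in AKK and 1.69 CPM in PBS, and Itgae 77.8 CPM in AKK and 31.3 CPM in PBS. Cd24a had the most UMIs of the 6 in both libraries. The part of monocyte, neutrophil, plasma cell and dendritic cell RNA in the results below was not tested.

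AKK members were shallower than PBS members. Their summed UMIs were 1143975 in AKK and 1181502 in PBS, and the quartiles of UMIs per cell were 4288 and 18334 in AKK and 9874 and 21809.5 in PBS. The 2 libraries shared 8 barcodes, none of them a member's. Neutrophil genes took over 0.5% of UMIs in 6 AKK members and 1 PBS member. The highest doublet scores fell on 7 AKK and 2 PBS members, which were kept.

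Members were a similar small share of leukocytes in both libraries. They were a larger share of C1q macrophages in AKK, a gap that narrowed among deep cells and widened after thinning. They were 1.29% of kept barcodes in AKK (84 of 6517, exact 95% interval 1.03 to 1.59%) and 1.39% in PBS (67 of 4833, 1.08 to 1.76%). Mrc1-positive C1q macrophages, which met every other part of the rule, were 2.53% in AKK (165 cells) and 4.68% in PBS (226 cells). Members were therefore 33.7% of C1q macrophages in AKK (27.9 to 40.0%) and 22.9% in PBS (18.2 to 28.1%). Among cells with at least 10000 UMIs the shares were 27.0% (44 of 163) and 23.5% (50 of 213) in AKK and PBS, and their intervals, 20.3 to 34.5% and 17.95 to 29.7%, overlapped. After each cell had been thinned to 3000 UMIs, members under the whole rule were 47.9% in AKK (103 of 215) and 24.4% in PBS (72 of 295), and C1q macrophages without an Mrc1 UMI were 57.2% in AKK (131 of 229) and 39.9% in PBS (111 of 278).

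The count of 0 did not mark the same level in both libraries. The Mrc1-positive cells held 605 CPM of Mrc1 in AKK and 1070 CPM in PBS, so a member of median depth would have held 6.72 Mrc1 UMIs in AKK and 17.0 in PBS at that level. Fewer than 3 Mrc1 UMIs would have been expected at that level in 24 of the 84 AKK members (28.6%) and 5 of the 67 PBS members (7.46%), too few to tell a 0 from that level. The level is a mean over cells chosen to hold Mrc1, and some held far more than others. Their quartiles were 2, 5 and 11 Mrc1 UMIs in AKK and 3, 9 and 22 in PBS, with maxima of 90 and 189. At a lower level more members would fall under that limit. Just outside the rule, 39 AKK and 29 PBS cells had exactly 1 Mrc1 UMI. At the other threshold, 15 AKK and 14 PBS members had 5 or 6 C1q UMIs, and 22 AKK and 59 PBS cells just below it had 3 or 4. The 22 AKK cells held 761 CPM of S100a8 and 355 CPM of Csf1r, against 236 and 165 CPM in the 15 AKK members with 5 or 6. The 59 PBS cells held 26681 CPM of S100a8 and 148 CPM of Csf1r, against 595 and 209 CPM in the 14 PBS members with 5 or 6.

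Between the libraries, members from AKK mice had more transcripts of antigen presentation and of the interferon-gamma target Cxcl9. They had fewer transcripts of most NF-kB and Toll-like receptor genes and of Chil3. Among 8459 genes with at least 20 UMIs, 323 were at least 2-fold higher in AKK members (3.82%) and 252 at least 2-fold lower (2.98%), on the scale of CPM + 5. The ratio was above 1 for 60.9% of genes, with a median log2 ratio of 0.12. Scaling by the trimmed mean of M values lowers every log2 ratio by 0.15 and leaves 47.7% above 1.

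**Figure D1:**
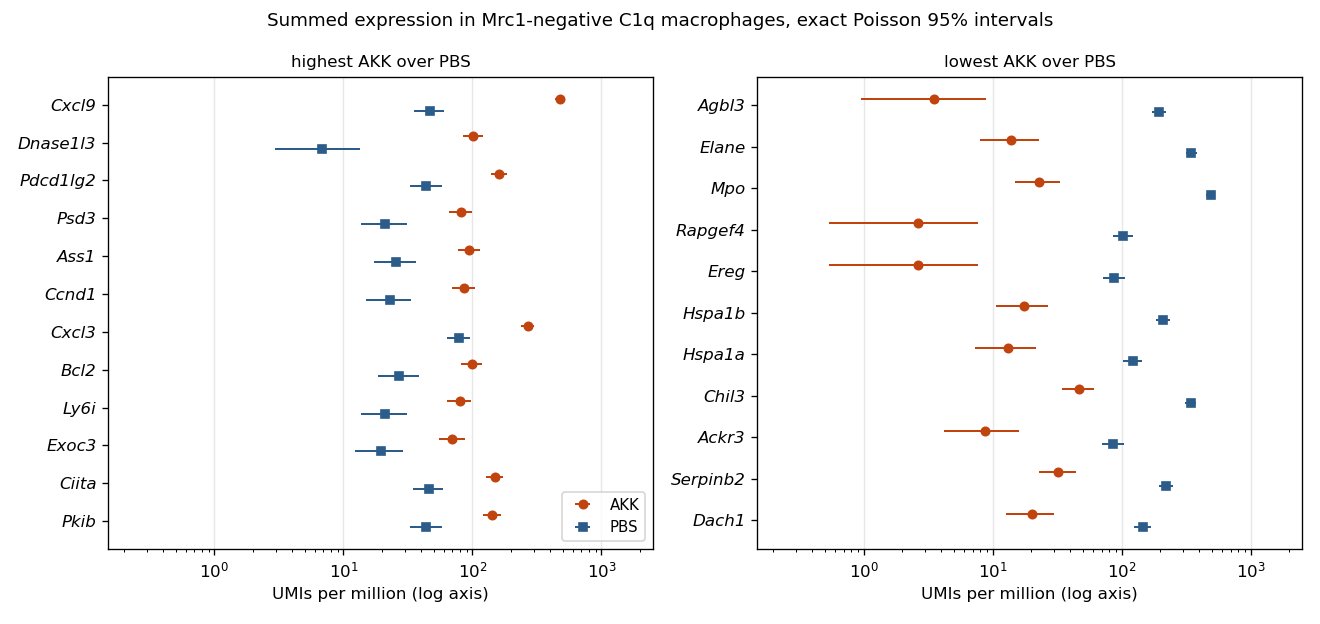
Summed UMIs as CPM (log axis) in Mrc1-negative C1q macrophages. Shown are the 12 named genes with the highest and 11 of the 12 with the lowest AKK over PBS ratio, ranked within the limits given under processing. Circles are AKK, squares PBS, bars exact Poisson 95% intervals. Cxcl9 stands at 473 CPM in AKK against 46.6 in PBS, and Chil3 at 46.3 CPM in AKK against 343 in PBS; Elane and Mpo rest on 1 PBS cell.

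MHC class II genes present peptides to CD4 T cells. Of 12, 11 were higher in AKK members, where 60.9% of all genes were, with a median log2 ratio of 0.60 against 0.12 for all genes. The count was 11 after trimmed-mean scaling and 10 with each cell weighted alike. H2-Aa, H2-Ab1 and H2-Eb1, the classical chains, stood at 2993, 3214 and 2348 CPM in AKK against 1924, 1906 and 1389 CPM in PBS members. Cd74, the invariant chain that escorts them, had 6581 CPM in AKK and 4928 CPM in PBS members, a ratio of 1.34 (1.29 to 1.38). Ciita, the coactivator that drives class II transcription, had 149 CPM in AKK and 45.7 CPM in PBS members, a ratio of 3.25 (2.38 to 4.50), and a UMI in 35 and 28 cells. H2-Oa, a modulator of peptide loading, was at 24.5 CPM in AKK and 5.92 CPM in PBS, and H2-Eb2 was the member of the list that was not higher, at 11.4 CPM in AKK and 14.4 CPM in PBS. Mrc1-positive cells also had 11 of 12 class II genes higher in AKK, with a median log2 ratio of 0.63. The cDC2 sums moved with class II, at 562 CPM in AKK and 329 CPM in PBS members, and 507 CPM in AKK and 170 CPM in PBS Mrc1-positive cells, and their part in it was not tested.

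MHC class I genes, which serve CD8 T cells, were higher in AKK members for 18 of 18, with a median log2 ratio of 0.58, where 60.9% of all genes were higher. After trimmed-mean scaling 16 remained above 1, and B2m and H2-D1 fell below it. Nlrc5, the class I coactivator, had 72.6 CPM in AKK and 31.3 CPM in PBS members, a ratio of 2.32 (1.55 to 3.51). Tap2, a peptide transporter subunit, was at 84.8 CPM in AKK and 42.3 CPM in PBS, and the immunoproteasome subunits Psmb9 and Psmb10 were at 127 and 134 CPM in AKK against 68.6 and 66.9 CPM in PBS members. B2m, the shared light chain, differed little, with 2096 CPM in AKK and 1935 CPM in PBS members. In Mrc1-positive cells 16 of 18 were higher and the median was 0.33. Whether the populations differ was not tested.

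Interferon-gamma response genes were higher in AKK members for 12 of 15, where 60.9% of all genes were, but Cxcl10, Gbp5 and Gbp3 were not. The median log2 ratio of the list was 0.67. Cxcl9, a ligand of CXCR3 that recruits activated T cells, had the highest ratio of the named genes on the scale of CPM + 5. It stood at 473 CPM (434 to 514) in AKK and 46.6 CPM (35.1 to 60.6) in PBS members, a ratio of 10.2 (7.69 to 13.7). The signal came from few cells, 22 AKK and 11 PBS members with a UMI, and at least 5 UMIs in 11 AKK and 3 PBS members. A single AKK member held 216 of the 541 AKK UMIs, and without the top cell of each library the ratio was 9.87. After thinning 20% of AKK and 4.84% of PBS members had a Cxcl9 UMI, against 1.16% of AKK and 0.315% of PBS T cells. With each cell weighted alike, the log2 ratio was 1.69 in place of 3.21. Gbp2 and Iigp1, GTPases of cell-autonomous defence, had 278 and 42.8 CPM in AKK against 140.5 and 14.4 CPM in PBS members.

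Cxcl10, a further CXCR3 ligand, went the other way, with 240 CPM in AKK and 602 CPM in PBS members, a ratio of 0.398 (0.345 to 0.458). Gbp5, a GTPase that promotes inflammasome assembly, had 18.4 CPM in AKK and 69.4 CPM in PBS, a ratio of 0.264 (0.156 to 0.431). Both ratios were alike in Mrc1-positive cells, 0.368 for Cxcl10 and 0.246 for Gbp5. Ifih1, which encodes the double-stranded RNA sensor MDA5, was at 156 CPM in AKK and 656 CPM in PBS members, a ratio of 0.239 (0.202 to 0.281). It had a UMI in 37 of 84 AKK and 57 of 67 PBS members.

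The promoter windows of these 4 interferon-response genes, whose levels differed in opposite directions, were searched for 2 interferon-linked motifs on both strands. They are TTCNNNGAA, the core of interferon-gamma-activated sites, and the core of interferon-stimulated response elements, here GAAA, any 2 bases and GAAA again. Windows run from 250 bases before to 50 after the start on GRCm38.p6 and come from RefSeq, written 5′ to 3′ on the gene's strand, with motif matches in capitals.
Cxcl9, chr5:92328030-92328329, minus strand: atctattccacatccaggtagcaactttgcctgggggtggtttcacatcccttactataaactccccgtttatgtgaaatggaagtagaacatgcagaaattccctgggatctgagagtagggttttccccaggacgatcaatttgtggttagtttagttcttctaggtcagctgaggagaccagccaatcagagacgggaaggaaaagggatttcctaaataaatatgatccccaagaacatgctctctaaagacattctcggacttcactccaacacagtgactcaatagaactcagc
Cxcl10, chr5:92348840-92349139, minus strand: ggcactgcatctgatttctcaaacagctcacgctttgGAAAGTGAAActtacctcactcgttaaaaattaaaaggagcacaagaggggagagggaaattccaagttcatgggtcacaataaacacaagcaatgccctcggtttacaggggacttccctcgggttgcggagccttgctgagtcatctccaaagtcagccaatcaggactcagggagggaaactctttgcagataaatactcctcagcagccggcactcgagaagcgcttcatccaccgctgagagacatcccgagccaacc
Gbp5, chr3:142496684-142496983, plus strand: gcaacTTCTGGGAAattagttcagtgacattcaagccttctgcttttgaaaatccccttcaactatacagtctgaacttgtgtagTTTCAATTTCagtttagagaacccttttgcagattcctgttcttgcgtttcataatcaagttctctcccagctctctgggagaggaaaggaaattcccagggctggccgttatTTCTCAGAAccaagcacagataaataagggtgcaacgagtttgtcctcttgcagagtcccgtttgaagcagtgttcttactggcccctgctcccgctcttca
Ifih1, chr2:62646206-62646505, minus strand: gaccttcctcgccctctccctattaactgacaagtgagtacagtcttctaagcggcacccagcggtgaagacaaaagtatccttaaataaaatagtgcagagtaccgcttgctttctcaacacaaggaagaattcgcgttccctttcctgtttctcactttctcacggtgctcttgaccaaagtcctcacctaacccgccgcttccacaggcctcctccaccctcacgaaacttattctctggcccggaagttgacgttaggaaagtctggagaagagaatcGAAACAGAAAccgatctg
Neither run of letters was in the Cxcl9 window. The windows of Cxcl10, Gbp5 and Ifih1 each held 1 match to the response element core, and that of Gbp5 also 2 to TTCNNNGAA. Of 32851 windows, 8.30% held TTCNNNGAA and 3.44% the response element core. Among the 61 named genes that had a window, 6 held the first and 5 the second. A match describes letters and not a site in use.

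Type I interferon genes split. Of 19 measured, 12 (63.2%) were higher in AKK members, near the 60.9% of all genes that were. The median log2 ratio was 0.21, against 0.12 for all genes. Yet the median cell gave the whole list 0.0705% of its UMIs in AKK and 0.238% in PBS, so the median over genes and the level per cell differ in sign. Among the higher genes, Usp18, a brake on interferon signalling, stood at 29.7 CPM in AKK and 11.8 CPM in PBS members. Ifit3 had 28 AKK and 3 PBS UMIs, a ratio of 9.64 (2.98 to 49.5). Ifi44 had 25 AKK UMIs, 84.0% of them in 1 cell, and 1 PBS UMI, a ratio of 25.8 with an interval of 4.23 to 1060. Its log2 ratio was 2.20 in all members and -0.94 in members chosen after thinning. Among the lower genes, Rsad2, Oasl1 and Isg15 stood at 189.7, 184 and 181 CPM in AKK against 384, 468 and 234 CPM in PBS members. Mrc1-positive cells had 2 of 20 higher and a median of -0.70, and members chosen after thinning had -0.67.

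NF-kB and Toll-like receptor genes were lower in AKK members for 14 of 18, with a median log2 ratio of -0.65, where 60.9% of all genes were higher. Nfkbia and Tnfaip3, feedback inhibitors of NF-kB, had 1524 and 545 CPM in AKK against 2636 and 873 CPM in PBS members. Tnf, the cytokine, had 188 CPM in AKK and 462 CPM in PBS members, a ratio of 0.407 (0.346 to 0.477). Il1b, the most abundant of the list, differed less, with 3094 CPM in AKK and 3400 CPM in PBS, a ratio of 0.910 (0.869 to 0.952). Tlr4, the endotoxin receptor, was higher, at 173 CPM in AKK and 82.9 CPM in PBS. Mrc1-positive cells had 15 of 19 lower and a median of -0.60.

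Among myeloid chemokines, 7 of 17 were higher in AKK members, where 60.9% of all genes were, and the median log2 ratio was -0.30. Ccl4, an attractant of monocytes and T cells, had 845 CPM in AKK and 2519 CPM in PBS members, a ratio of 0.336 (0.312 to 0.361). Ccl2, the main attractant of Ccr2 monocytes, had 197 CPM in AKK and 445 CPM in PBS. Cxcl2, a neutrophil attractant and the most abundant chemokine, had 5432 CPM in AKK and 6886 CPM in PBS, a ratio of 0.789 (0.763 to 0.815). Its relative Cxcl3 was higher, at 267 CPM in AKK and 78.7 CPM in PBS, a ratio of 3.40 (2.69 to 4.33), whereas Mrc1-positive cells had 202 CPM in AKK and 202 CPM in PBS. That difference between the populations was not tested.

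Alternative activation genes had no common direction, 5 of 11 higher with a median of -0.01, where 60.9% of all genes were higher. Pdcd1lg2, the gene of PD-L2, a ligand of the checkpoint receptor PD-1, had 161 CPM in AKK and 44.0 CPM in PBS members, a ratio of 3.65 (2.67 to 5.07), with a UMI in 36 and 19 cells. Mgl2, a lectin, had 342 CPM in AKK and 149 CPM in PBS. Most of its UMIs lay in the 9 AKK and 8 PBS members with at least 5 Plet1 UMIs, described below. Members with fewer held 138 CPM of Mgl2 in AKK and 10.7 CPM in PBS. Chil3, a chitinase-like protein of monocytes and activated macrophages, had 46.3 CPM in AKK and 343 CPM in PBS members, a ratio of 0.135 (0.0995 to 0.180). The AKK level lay under the 52.8 CPM of AKK T cells, and the PBS level above the 84.8 CPM of PBS T cells. Arg1, arginase, had 1571 CPM in AKK and 1966 CPM in PBS, a ratio of 0.799, which turned above 1 with each cell weighted alike (log2 ratio 0.18).

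In arginine metabolism, Ass1, which rebuilds arginine from citrulline, had 94.4 CPM in AKK and 25.4 CPM in PBS members, a ratio of 3.72 (2.46 to 5.77). T cells held 44.3 CPM of Ass1 in AKK and 65.6 CPM in PBS, so the PBS members were below their T cells. The transporter Slc7a2 and the nitric oxide synthase Nos2 were lower, at 366 and 57.7 CPM in AKK against 697 and 131 CPM in PBS members. Of the list, 5 of 11 were higher, where 60.9% of all genes were.

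C1q itself stood at similar or higher levels in AKK members, and the rule fixed its floor. C1qa, C1qb and C1qc had 904, 732 and 577 CPM in AKK members and 596, 672 and 361 CPM in PBS members. In Mrc1-positive cells the order was reversed, with 1526, 1027 and 903 CPM in AKK and 1773, 1296 and 1056 CPM in PBS. Cfb, a component of the alternative pathway, was higher in AKK members, with 101 CPM in AKK and 33.9 CPM in PBS, a ratio of 2.97 (2.06 to 4.37).

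Matrix and lipid genes were mostly lower in AKK members, with 7 of 18 and 4 of 17 higher, though 9 and 8 were higher with each cell weighted alike. Of all genes, 60.9% were higher, and 56.6% with each cell weighted alike. Mmp12, the macrophage elastase that marked many members, differed little over all members together, with 2421 CPM in AKK and 2287 CPM in PBS. Its ratio of 1.06 turned below 1 after trimmed-mean scaling. Timp1 and Serpinb2, protease inhibitors, were at 6.12 and 32.3 CPM in AKK against 77.9 and 221 CPM in PBS members. A single cell held 75.7% of the AKK and another 55.2% of the PBS UMIs of Serpinb2, whose ratio was 0.146, and 0.0794 without them. Spp1, osteopontin, had 341 CPM in AKK and 912 CPM in PBS, and Fabp5, a fatty acid carrier, 143 CPM in AKK and 286 CPM in PBS. Cd36, a fatty acid and lipoprotein receptor, was higher, at 55.9 CPM in AKK and 9.31 CPM in PBS, from 13 and 7 cells. Apoe, the most abundant of the lipid list, had 1458 CPM in AKK and 1448 CPM in PBS members. In Mrc1-positive cells it had 2790.4 CPM in AKK and 4858 CPM in PBS.

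Some of the lowest ratios rested on few PBS cells. Elane and Mpo, granule enzymes of myeloid precursors, had 14.0 and 22.7 CPM in AKK against 347 and 492 CPM in PBS members, but 1 PBS member held 97.1% and 96.7% of the PBS UMIs. Without the top cells their ratios were 1.205 and 1.304. Hspa1a and Hspa1b, heat shock genes of near-identical sequence whose reads may be split, had 13.1 and 17.5 CPM in AKK against 122 and 209.9 CPM in PBS members, with ratios of 0.108 and 0.0833, and of 0.253 and 0.134 without the top cells. Ereg, an epidermal growth factor receptor ligand, had 3 UMIs in AKK members and 88.0 CPM in PBS members, a ratio of 0.0298 (0.00605 to 0.0895). Its PBS UMIs came from 7 cells, 38.5% from 1 of them, and the log2 ratio was -3.61 in all members and 0.72 in members chosen after thinning. Ecm1, an extracellular matrix protein, had 103 CPM in AKK and 569 CPM in PBS, and Zeb2, a transcription factor of the macrophage lineage, 1951 CPM in AKK and 4481 CPM in PBS, a ratio of 0.435 (0.414 to 0.458), with a UMI in 73 and 65 cells.

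Of the remaining genes with the highest ratios, Dnase1l3, a secreted DNase, had 101 CPM in AKK and 6.77 CPM in PBS members, and a single cell held 64.7% of the AKK UMIs. Its ratio was 14.98 (7.35 to 35.5), and 8.47 without the top cells. Ccnd1, cyclin D1, and Bcl2, an inhibitor of apoptosis, had 85.7 and 98.8 CPM in AKK against 22.9 and 27.1 CPM in PBS members, while T cells held 607 CPM of Bcl2 in AKK and 761 CPM in PBS. Pkib, an inhibitor of protein kinase A, had 142 CPM in AKK and 44.0 CPM in PBS, and Exoc3, an exocyst subunit, 69.9 CPM in AKK and 19.5 CPM in PBS. Itgax, the integrin CD11c, had 283 CPM in AKK and 120 CPM in PBS, a ratio of 2.36 (1.93 to 2.89). Monocyte trait genes were higher in AKK members for 3 of 14, where 60.9% of all genes were, with a median log2 ratio of -0.40. Among them, F13a1, a coagulation factor, had 79.5 CPM in AKK and 245 CPM in PBS, and Plac8 770.1 CPM in AKK and 1105 CPM in PBS.

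**Figure D2:**
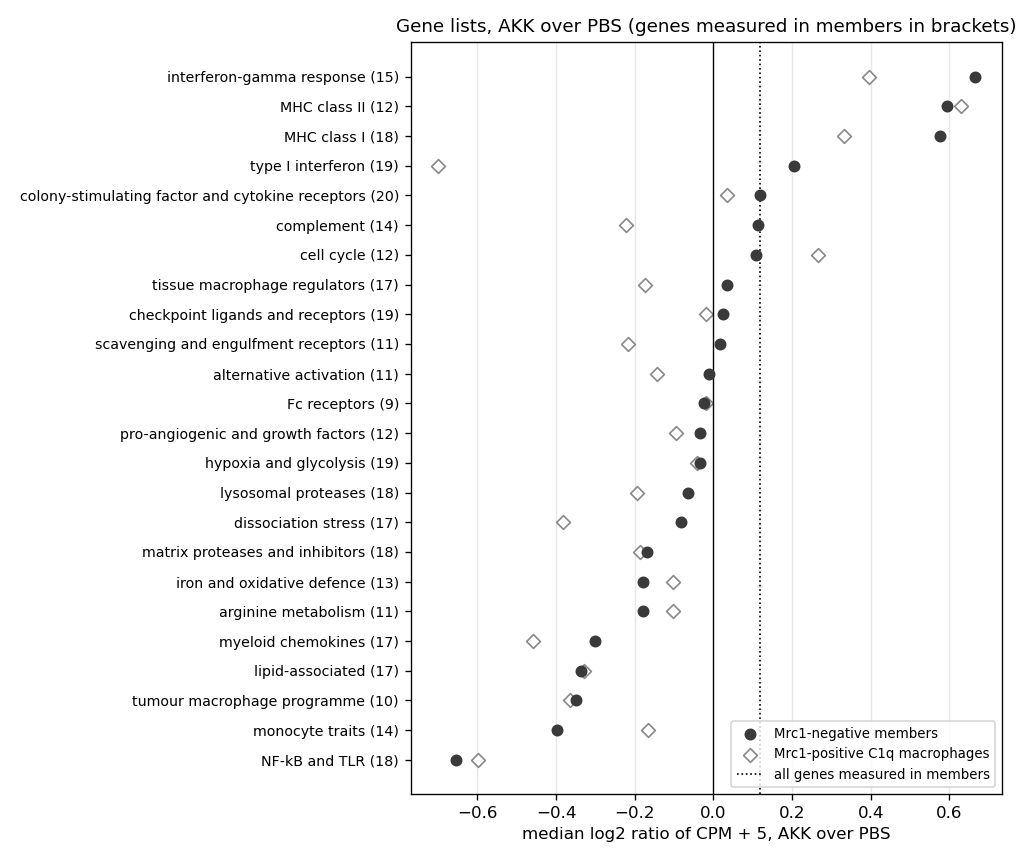
Median log2 ratio, AKK over PBS, of 24 gene lists in Mrc1-negative members (filled) and in Mrc1-positive C1q macrophages (open), with the median of all genes measured in members dotted; numbers in brackets count the genes measured in members. Antigen presentation and interferon-gamma lists lie to the right in both populations and NF-kB genes to the left, while type I interferon lies at 0.21 in members and -0.70 in Mrc1-positive cells.

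Set beside Mrc1-positive cells of the same library, the members had fewer transcripts of most lysosomal, scavenging and lipid-associated genes and more of most glycolysis and monocyte trait genes. The rule chose the cells by Mrc1, so nothing is read from these values as a test. Of 9584 genes measured in both libraries, 25.6% were higher in the members of both and 31.9% lower in both, and 0.282% and 0.511% were so by at least 2-fold. After Mrc1, the lowest ratio among the named genes was that of Vcam1, an adhesion molecule, with 3.50 CPM in members and 52.4 in Mrc1-positive cells of AKK, and 5.08 and 241 CPM in members and Mrc1-positive cells of PBS. Apoe had 1458 CPM in members and 2790.4 CPM in Mrc1-positive cells of AKK, and 1448 CPM in members and 4858 CPM in Mrc1-positive cells of PBS. Mertk, an engulfment receptor, had 79.5 CPM in members and 193 CPM in Mrc1-positive cells of AKK and 71.1 CPM in members and 337 CPM in Mrc1-positive cells of PBS. Hpgds and Ptgs1, prostaglandin enzymes, were lower as well, at 11.4 and 35.0 CPM in members and 66.2 and 97.1 CPM in Mrc1-positive cells of AKK. Their values in PBS were 16.9 and 36.4 CPM in members and 116 and 148 CPM in Mrc1-positive cells. Igf1, a growth factor, was near the limit in members, at 4.37 CPM in AKK and 7.62 CPM in PBS, against 28.7 CPM in AKK and 94.1 CPM in PBS Mrc1-positive cells.

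On the high side, Plac8 had 770.1 CPM in members and 383 in Mrc1-positive cells of AKK, and 1105 CPM in members and 237 CPM in Mrc1-positive cells of PBS. Cst3, cystatin C, had 2552.5 CPM in members and 1251 CPM in Mrc1-positive cells of AKK, and 1716 and 853 CPM in members and Mrc1-positive cells of PBS. A single cell held 22.6% of its AKK and another 21.7% of its PBS member UMIs. Cst3 had a UMI in 89.3% of members and 97.0% of Mrc1-positive cells of AKK, and in 95.5% and 95.6% of those of PBS. Inhba, an activin subunit, F3, tissue factor, and Olr1, a receptor for oxidized lipoprotein, had 181, 62.1 and 213 CPM in members and 77.2, 21.6 and 102 CPM in Mrc1-positive cells of AKK. In PBS they had 426, 175 and 465 CPM in members and 148, 69.5 and 160 CPM in Mrc1-positive cells. A single cell held 19.8% of the AKK and another 27.4% of the PBS member UMIs of Inhba. Olr1 had a UMI in 32.1% of members and 39.4% of Mrc1-positive cells of AKK, but in 71.6% and 45.1% of those of PBS. Cstdc4, of the stefin A cluster whose near-identical copies may share reads, had a single cell with 52.3% of its AKK and another with 38.5% of its PBS member UMIs. It had a UMI in 13.1% of members and 13.3% of Mrc1-positive cells of AKK, and in 14.9% and 10.2% of those of PBS.

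**Figure D3:**
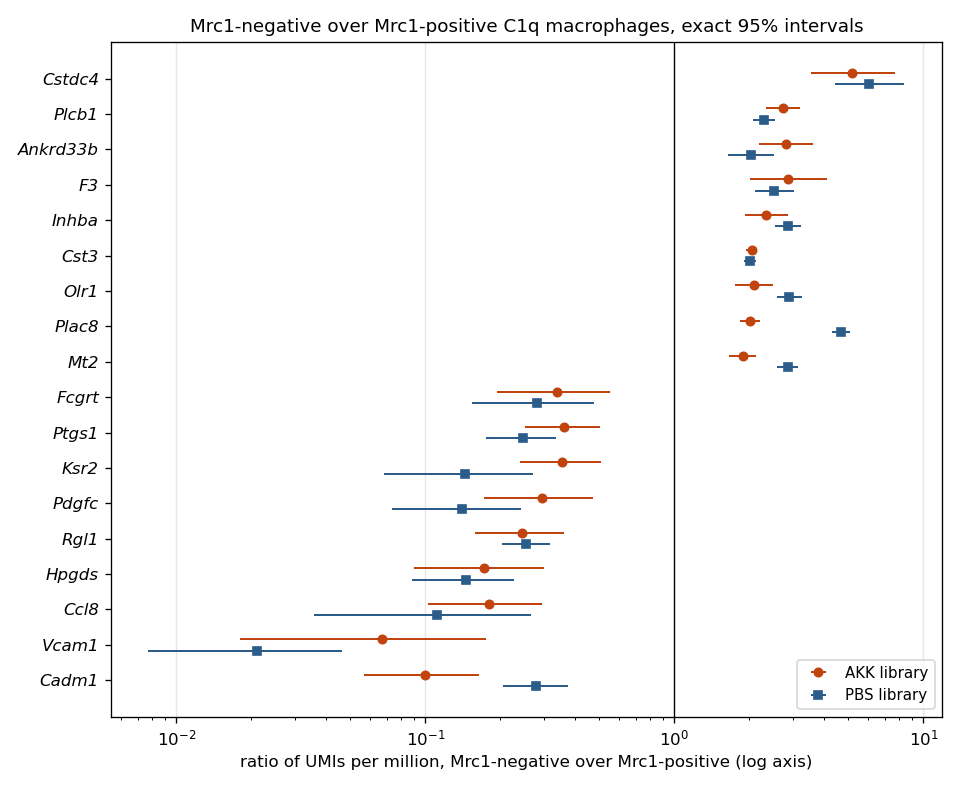
Ratio of CPM, Mrc1-negative over Mrc1-positive C1q macrophages (log axis), for 18 genes in the AKK (circles) and PBS (squares) library with exact 95% intervals; Mrc1, at 0 by the rule, is left out. The 9 upper genes lie above 1 and the 9 lower genes below 1 in both libraries, from Cstdc4 at 5.18 in AKK and 6.06 in PBS to Vcam1 at 0.0667 in AKK and 0.0211 in PBS. A single cell held 52.3% of the AKK and another 38.5% of the PBS member UMIs of Cstdc4.

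By list, 17 of 18 lysosomal genes were lower in the members of both libraries, with median log2 ratios of -0.40 in AKK and -0.41 in PBS, where all genes had -0.01 and -0.05. Psap, the saposin precursor, had 2069 CPM in members and 2949 in Mrc1-positive cells of AKK, and 2009 CPM in members and 2568 CPM in Mrc1-positive cells of PBS. Scavenging and engulfment receptors were lower in both for 9 of 11, alternative activation genes, Mrc1 among them, for 9 of 13, and lipid-associated genes for 11 of 16. Tissue macrophage regulators were lower in both for 8 of 18, higher in both for 3 and split for 7, with medians of -0.10 in AKK and -0.08 in PBS. Hypoxia and glycolysis genes were higher in both for 16 of 20, with medians of 0.21 in AKK and 0.29 in PBS, and Gapdh had 1622 CPM in members and 1316 CPM in Mrc1-positive cells of AKK, and 2008 and 1458 CPM in members and Mrc1-positive cells of PBS. NF-kB genes were higher in both for 12 of 18 and monocyte traits for 8 of 14. Cell cycle genes were lower in both for 12 of 19, and Mki67, a marker of cycling cells, stood at 13.1 CPM in members and 31.9 CPM in Mrc1-positive cells of AKK and 27.9 CPM in members and 69.3 CPM in Mrc1-positive cells of PBS. Class II genes did not differ in one direction, with 3 of 12 higher and 5 lower in both.

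The members were not of 1 kind. With limits chosen after their values had been seen, 31 of 84 AKK members (36.9%) and 27 of 67 PBS members (40.3%) had at least 10 Arg1 UMIs, and 36 and 30 had 0 or 1. Members with at least 10 Arg1 UMIs held 3981 CPM of Arg1 in AKK and 4628 CPM in PBS, with Mmp12 at 3046 CPM in AKK and 4022 CPM in PBS. Their median share of H2-Aa, H2-Ab1 and H2-Eb1 was 0.371% of UMIs in AKK and 0.231% in PBS. In members with 0 or 1 Arg1 UMI that share was 0.983% in AKK and 0.680% in PBS. Over cells, the Spearman correlation of the Arg1 and class II shares was -0.42 in AKK (84 cells) and -0.20 in PBS (67 cells), where cells of 1 library share its depth and preparation.

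Another kind had at least 5 UMIs of Plet1, a surface protein, in 9 AKK and 8 PBS members. These cells were deep, with medians of 38522 UMIs in AKK and 31680.5 in PBS, and held 104 CPM of Apoe in AKK and 240 CPM in PBS, and 3592 CPM of Mmp12 in AKK and 2387 CPM in PBS. They also carried Il1r2, the decoy receptor for interleukin-1, at 2560.5 CPM in AKK and 3014 CPM in PBS, and Itgae, the integrin CD103, at 274 CPM in AKK and 146 CPM in PBS. Dendritic cell lists were high in them. The 7 cDC2 markers summed to 1539 CPM in AKK and 1488 CPM in PBS Plet1 cells, against 187 CPM in AKK and 24.6 CPM in PBS members with fewer than 5 Plet1 UMIs. Mgl2 made 873 CPM of the sum in AKK and 675 CPM in PBS Plet1 cells, and Ccl17, a chemokine of dendritic cells and macrophages, 501 CPM in AKK and 691 CPM in PBS. In members with fewer, Mgl2 had 138 CPM in AKK and 10.7 CPM in PBS, and Ccl17 14.5 CPM in AKK and 3.21 CPM in PBS. Kmo, of the same list, had 132 CPM in AKK and 89.5 CPM in PBS Plet1 cells, against 7.26 CPM in AKK and 3.21 CPM in PBS members with fewer. Detected were 6 of the 7 in AKK, Flt3 at 0, and 4 in PBS, Clec10a, Cd7 and Flt3 at 0. The 6 cDC1 markers summed to 609 CPM in AKK and 525 CPM in PBS Plet1 cells, against 155 CPM in AKK and 207 CPM in PBS members with fewer. Of these, Clec9a and Snx22 were at 0 in the Plet1 cells of both libraries and Xcr1 in those of AKK. Batf3 and Cd24a had 63.1 and 271 CPM in AKK and 102 and 272 CPM in PBS Plet1 cells. In members with fewer they had 20.6 and 120 CPM in AKK and 10.7 and 191 CPM in PBS. The part of dendritic cells in this kind was not tested. A further kind gave at least 0.2% of UMIs to Plac8, Ccr2, Ly6c2 and Vcan, 14 AKK and 16 PBS members, and held 112 CPM of Mmp12 in AKK and 74.2 CPM in PBS. In that kind the class II share of the median cell was 0.796% in AKK and 0.120% in PBS. The kinds overlapped, with 4 of these 14 AKK and 4 of these 16 PBS cells also at 10 or more Arg1 UMIs. Of all members, 36.9% in AKK and 40.3% in PBS were. A single PBS cell met both the Arg1 and the Plet1 limit. Whether the kinds overlap less than those shares give was not tested. No limit was met by 34 AKK and 21 PBS members.

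**Figure D4:**
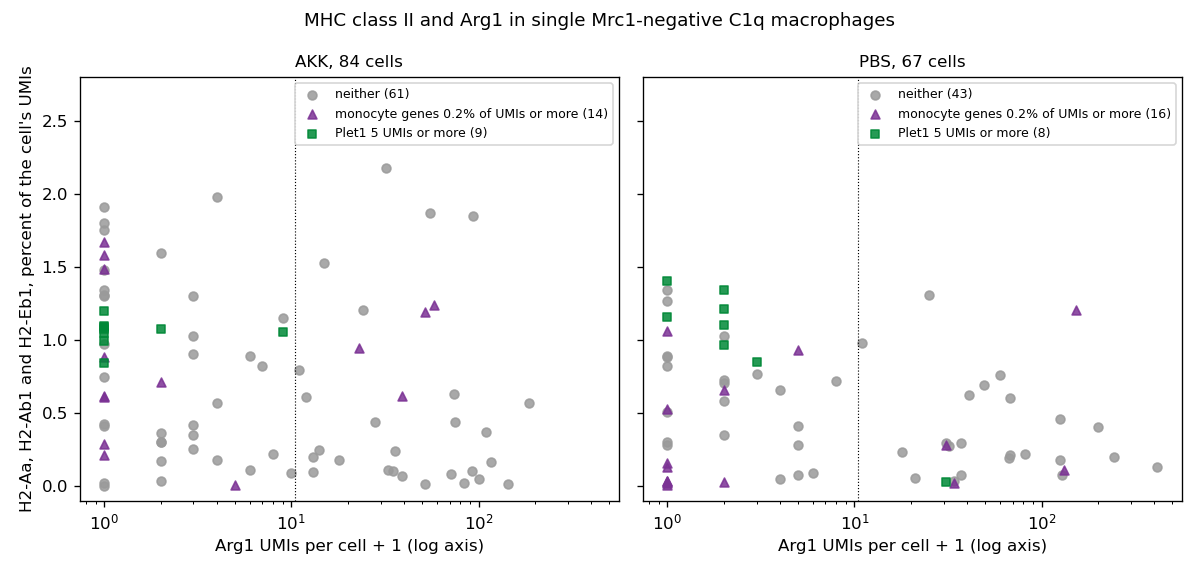
Share of H2-Aa, H2-Ab1 and H2-Eb1 in each member's UMIs against its Arg1 UMIs + 1 (log axis), AKK left and PBS right; squares are Plet1 cells, triangles cells rich in monocyte genes, grey circles the others, and the dotted line marks 10 Arg1 UMIs. Cells right of the line have a median class II share of 0.371% in AKK and 0.231% in PBS, and Plet1 cells one of 1.07% in AKK and 1.13% in PBS.

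Some of the library differences were present both in members with at least 10 Arg1 UMIs and in those with 0 or 1, and others were not. Among those with at least 10 Arg1 UMIs, Cxcl9 had 487 CPM in AKK and 12.2 CPM in PBS, and among those with 0 or 1 it had 503 CPM in AKK and 47.6 CPM in PBS. Few cells carried the AKK levels of Cxcl9. Of its 210 AKK UMIs in the Arg1 cells, 88 came from 1 cell and 83 from another. Of its 297 AKK UMIs in those with 0 or 1, 216 came from 1 cell, which had 140 Plet1 UMIs. Cd74 had 5468 CPM in AKK and 4081 CPM in PBS in the Arg1 cells, and 7451 CPM in AKK and 5597 CPM in PBS in those with 0 or 1. Pdcd1lg2, Ciita and Ass1 had ratios of 3.08, 2.85 and 2.21 in the Arg1 cells, and of 3.99, 3.99 and 5.73 in those with 0 or 1. Ifih1, Tnf, Ccl4 and Chil3 were lower in AKK in both kinds, with ratios of 0.127, 0.359, 0.459 and 0.216 in the Arg1 cells and 0.345, 0.285, 0.177 and 0.0985 in those with 0 or 1. Other genes differed between the kinds. Cxcl10 had 137 CPM in AKK and 1029.8 CPM in PBS in the Arg1 cells, and 286 CPM in AKK and 262 CPM in PBS in those with 0 or 1. Mmp12 went opposite ways, with a ratio of 0.757 (0.706 to 0.813) in the Arg1 cells and 2.23 (2.01 to 2.47) in those with 0 or 1. Serpinb2, Apoe and Ecm1 had ratios of 0.0350, 1.43 and 0.137 in the Arg1 cells. In those with 0 or 1 their ratios were 9.64, 0.761 and 0.886.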

How the data were processed

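The files held gene-by-barcode UMI counts of 32285 genes, deposited by the authors in 1 matrix per library and not normalized. Cell Ranger was version 7.1.0 per the file headers and 5.0.1, with the mm10 genome, per the submitters' processing notes. Neither source states whether intronic reads were counted, nor which gene annotation was used. Counts of member cells were summed per library and divided by their total (CPM). Shares carry exact Clopper-Pearson, levels exact Poisson and ratios exact conditional binomial 95% intervals, which cover counting error only. With 1 library per group nothing was tested. Log2 ratios used CPM + 5 over genes with at least 20 UMIs in both libraries together. Named genes were the 12 highest and 12 lowest AKK over PBS ratios, and the 10 highest and 10 lowest ratios of Mrc1-negative over Mrc1-positive cells, with at least 100 UMIs and a UMI in 10% of cells. Mitochondrial, ribosomal protein, immunoglobulin and joining chain, haemoglobin, Gm-number and Rik genes were left out of these rankings. The highest, the lowest and the most abundant gene of each list were added, some named genes are not reported here, and further list members are named as examples chosen after their values were seen. The members and the 24 gene lists were chosen with earlier results of these data known. Doublets were scored with Scrublet (scanpy 1.11.5) and left out only as an alternative. Python 3.11.15, numpy 2.4.6, scipy 1.17.1, pandas 2.3.3 and matplotlib 3.10.9 were used.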

Additional observations from a re-analysis of the deposited data

Results flagged for a closer look

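Dnase1l3 was set apart because the AKK over PBS ratio was 14.98 in Mrc1-negative members but 0.321 in Mrc1-positive C1q macrophages, and this difference was not tested. Members held 116 AKK and 8 PBS UMIs, from 9 and 5 cells, and 64.7% of the AKK UMIs came from a single cell.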

How the results depend on the processing

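No paired analysis was possible because there was 1 library per group and the results come from no test. Of the AKK over PBS values of named genes under the alternatives, 1018 moved by less than their interval, 181 moved further and 20 changed sign. For the ratios of Mrc1-negative over Mrc1-positive cells these numbers were 697, 115 and 8.
The members' share of kept barcodes, 1.29% in AKK and 1.39% in PBS, became 0.875% and 0.786% with at least 10 C1q UMIs, 1.89% and 1.99% with up to 1 Mrc1 UMI, 2.00% and 2.87% with at least 10000 UMIs, 1.83% in AKK after thinning, and 1.76% and 2.31% without barcodes with neutrophil RNA, which also leave the denominator. Their share of C1q macrophages became 27.5% and 16.2% with 10 C1q UMIs and 49.4% and 32.8% with up to 1 Mrc1 UMI, and in AKK 27.0% in deep cells and 47.9% after thinning.
Genes at least 2-fold higher in AKK numbered 523 with 10 C1q UMIs, 497 with cells weighted alike, 87 with at least 100 UMIs and 574 with a pseudocount of 1; those 2-fold lower numbered 123 after thinning and 106 with 100 UMIs.
After thinning, median log2 ratios were -0.67 for type I interferon, -0.18 for lipid, -0.47 for cell cycle and -0.35 for angiogenic genes. With cells weighted alike they were 0.20 for alternative activation, -0.0549 for lipid, 0.12 for lysosomal, 0.17 for Fc receptor, -0.18 for checkpoint and 0.64 for cell cycle genes. With trimmed-mean scaling they were -0.80 for NF-kB, -0.21 for lysosomal, -0.17 for Fc receptor and -0.12 for checkpoint genes. With 10 C1q UMIs they were -0.18 for lysosomal, 0.69 for cell cycle and -0.38 for angiogenic genes; with up to 1 Mrc1 UMI -0.82 for NF-kB and 0.36 for cell cycle genes. Angiogenic genes had -0.22 in deep cells, and cell cycle genes 0.54 without the cell rich in precursor granule RNA.
Signs of single AKK over PBS log2 ratios changed after thinning for Psd3 (-0.0226), Mpo (0.96), Ereg (0.72), Ackr3 (0.37), Ifi44 (-0.94), Arg1 (0.0703) and Gpr141 (-0.43). With 10 C1q UMIs they changed for Elane (0.86), Mpo (0.63) and Mmp12 (-0.22), and with up to 1 Mrc1 UMI for Dusp1 (-0.0673). Elane and Mpo had 0.27 and 0.34 without the precursor-rich cell and 0.19 and 0.30 without the top cells, both alternatives chosen after seeing the data. Trimmed-mean scaling gave -0.0324 for B2m and -0.0659 for Mmp12, and equal weights 0.18 for Arg1, 0.33 for Cd63 and 0.14 for Thbs1.
For Mrc1-negative over Mrc1-positive cells with equal weights, AKK medians were -0.15 for class II, 0.17 for chemokine, -0.28 for alternative activation, 0.12 for angiogenic and -0.31 for tumour programme genes, and PBS medians 0.0706 for class II, -0.23 for chemokine, -0.47 for scavenging, -0.13 for arginine and -0.30 for iron genes. In deep cells AKK had -0.13 for chemokine and -0.36 for angiogenic genes. Without doublet scores AKK had -0.0641 for chemokine and PBS -0.41 for stress genes. Equal weights changed the sign of Ccl8 (0.65), Fcer1g (0.0416), Csf2rb (-0.0413) and Tgfbi (0.12) in AKK and of Cd74 (0.0115), Ccl22 (-0.093), Il1r2 (-0.14) and Hmgb2 (0.24) in PBS. The cause of these changes was not tested.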
